A study of Mus musculus with 16 samples.

Results

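The actin cytoskeleton and motility genes are 40 genes whose products form, cap, cut, branch, bundle and anchor actin filaments or signal to them. They were listed by name, with earlier results of these libraries known, the loss of Pdlim1 in alveolar culture among them. All 40 were found among the 47643 gene identifiers counted in each of 16 libraries, of which 20730 had any count. All cells came from wild type C57BL/6 mice, with age and sex not given in the sources used here. BALF denotes cells washed out of the airways by bronchoalveolar lavage, PLF cells washed out of the peritoneal cavity, BMDM macrophages grown from bone marrow, and mexAM murine alveolar macrophages kept in culture ex vivo. These 4 groups have 3 libraries each, from mice numbered 1, 2 and 4. The other 4 libraries, called the pool cultures, are alveolar macrophages that were cultured ex vivo from pooled lavages. Pool 1 was sampled at passage 8 and passage 13, pool 2 at passage 5 and passage 10. How many mice made a pool, the mexAM passage and the media were not given in the sources used here, and no sort of the lavage cells is named. BALF and PLF are therefore fresh mixed washes from 2 body sites, while BMDM, mexAM and the pools are cultured cells.

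Actin monomers are held ready by thymosins and profilin, are added to filaments by Ena/VASP proteins or as branches by the Arp2/3 complex, and are returned by cofilin and gelsolin. Filaments are bundled by alpha-actinins, filamin and fascin, made contractile by myosin II under the control of tropomyosins, and tied to the surface by talin and vinculin at adhesions and by ezrin, radixin and moesin at the cortex. Small GTPases such as Rhoc and Rac2 set the balance of these processes, through which alveolar macrophages crawl on the alveolar surface and engulf particles.

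The sequences around the starts of 3 members are shown first, because the results turn on them: Pdlim1 was near 0 in cultured cells, Vcl near 0 in fresh lung cells, and Ezr low in BMDM. They are RefSeq windows of build GRCm38.p6 that run from 250 bases before to 50 bases after the annotated start. Such windows were matched for 35 of the 40 members. Serum response factor, a regulator of many actin genes, binds the CArG box, and AP-1 factors bind TGANTCA; both motifs were searched on both strands, and matches are in capitals. The CArG box was in 1.63% of all 32851 windows and TGANTCA in 7.81%. Of the members, Actg1, Myl6 and Vcl held a CArG box, and Actn4, Ezr, Lmna, Myl12a and Zyx held TGANTCA. A match describes the letters only. The window of Pdlim1, on the minus strand at chr19:40271567-40271866, held neither motif, that of Vcl on the plus strand at chr14:20929148-20929447 held a CArG box, and that of Ezr on the minus strand at chr17:6782731-6783030 held TGANTCA. In the gene annotation GENCODE M21, Pdlim1 starts at chr19:40271842, so most of its window lies inside that gene. For Pdlim1 the search thus covered few bases before that start.
Pdlim1: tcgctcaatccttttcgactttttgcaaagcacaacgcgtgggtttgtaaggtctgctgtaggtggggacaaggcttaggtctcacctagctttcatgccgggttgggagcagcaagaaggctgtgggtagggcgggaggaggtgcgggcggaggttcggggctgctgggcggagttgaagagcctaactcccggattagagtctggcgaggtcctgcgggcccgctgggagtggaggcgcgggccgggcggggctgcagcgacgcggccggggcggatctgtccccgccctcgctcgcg
Vcl: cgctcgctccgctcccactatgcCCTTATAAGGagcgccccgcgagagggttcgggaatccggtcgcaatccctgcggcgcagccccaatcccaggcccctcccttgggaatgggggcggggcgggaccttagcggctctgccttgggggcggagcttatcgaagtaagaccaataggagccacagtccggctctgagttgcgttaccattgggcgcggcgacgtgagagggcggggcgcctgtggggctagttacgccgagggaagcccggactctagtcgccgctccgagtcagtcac
Ezr: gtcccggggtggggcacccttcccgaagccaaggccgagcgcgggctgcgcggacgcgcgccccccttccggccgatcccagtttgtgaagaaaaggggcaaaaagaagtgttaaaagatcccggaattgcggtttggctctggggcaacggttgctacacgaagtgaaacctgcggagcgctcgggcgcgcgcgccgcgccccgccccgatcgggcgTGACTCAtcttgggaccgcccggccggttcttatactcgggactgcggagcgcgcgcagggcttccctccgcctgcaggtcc

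Libraries held 827791 to 2884679 counts in genes, and the members took 1.50% to 3.95% of them. Levels are in CPM, counts scaled to a common library total after edgeR's trimmed mean of M values, and 3 values in a row give mice 1, 2 and 4. Changes are on the log2 scale, each ± its standard error from edgeR's quasi-likelihood fit. A gene was called changed at a Benjamini-Hochberg adjusted p under 0.05 over all genes tested. The 7 alveolar macrophage markers summed to 9710.0 to 14330.0 CPM in BALF, 6454 to 9546 in mexAM and 5080.0 to 6289 in the pools, against 266 to 283 in PLF and 256 to 398 in BMDM. Gata6, the defining factor of peritoneal macrophages, was at 45.0 to 54.8 CPM in PLF and at 0 elsewhere. PLF also held other cells, with 1723 to 2160.0 CPM of B cell, 1313 to 1406 of mast cell, 92.1 to 101 of T and NK cell and 40.5 to 94.3 of dendritic cell markers. The platelet list (Pf4, Ppbp and Itga2b) summed to 1409 to 2015 CPM in PLF and 800.0 to 909 in BMDM, against 5.55 to 13.3 in BALF and 0 to 2.30 in mexAM. That sum was nearly all Pf4, at 1397 to 2000 CPM in PLF and 797 to 895 in BMDM. In no library did Ppbp exceed 11.3 CPM or Itga2b 5.88 CPM. Ppbp was at 9.14 to 11.3 CPM in PLF and 3.27 to 11.1 in BMDM, against 0 to 0.886 in BALF. Itga2b was at 1.59 to 5.88 CPM in PLF and 0 to 4.71 in BMDM, against 0 in BALF. The part of platelets in these sums was not tested. The lung epithelium list summed to 65.9 to 104 CPM in BALF and 49.4 to 110.3 in mexAM, where Krt8, Krt18, Sftpc and Scgb1a1 were at 0, against 6.53 to 19.0 in PLF and 0 to 4.71 in BMDM. In mexAM that sum was nearly all Cdh1, at 48.9 to 110.3 CPM against 23.6 to 39.9 in BALF. Epcam went the other way, at 0 to 0.494 CPM in mexAM against 35.4 to 42.6 in BALF. The B cell and mast cell sums did not exceed 4.43 CPM in BALF or 2.83 in mexAM. In BMDM the neutrophil list stood at 1758 to 4977 CPM, highest in mouse 4. BALF held 40.2 to 726 CPM of erythroid transcripts, with mice 2 and 4 at 487 and 726. Reads outside genes made up 27.6% to 29.9% of PLF, 20.8% to 28.3% of BMDM, 19.9% to 21.4% of BALF, 13.3% to 15.5% of mexAM and 10.6% to 12.4% of pool libraries. These are bulk libraries, in which fewer cells of a type and less RNA per cell cannot be told apart.

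The 40 members together took less of the message in PLF than in any other group. Summed over the members, PLF held 17701 ± 2473 CPM, BMDM 28497 ± 3288, BALF 33472 ± 4007 and mexAM 33707 ± 5111 (mean ± SD, n = 3), and the pools 33757 ± 2459 (n = 2). The highest PLF library, at 20039 CPM, was below the lowest of any other group, at 25979, while BALF, mexAM and the pools overlapped. Abundant members weigh most in this sum. Actb had a mean of 5464 CPM in PLF, 10022 in BMDM and 10686 in BALF, and Tmsb4x of 3197, 7762 and 6434. The sum thus does not describe each member, and in PLF against BALF 7 members were called higher and 19 lower. Other cells took part of the PLF libraries, as the marker sums above show, and their part in this difference was not tested.

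**Figure D1:**
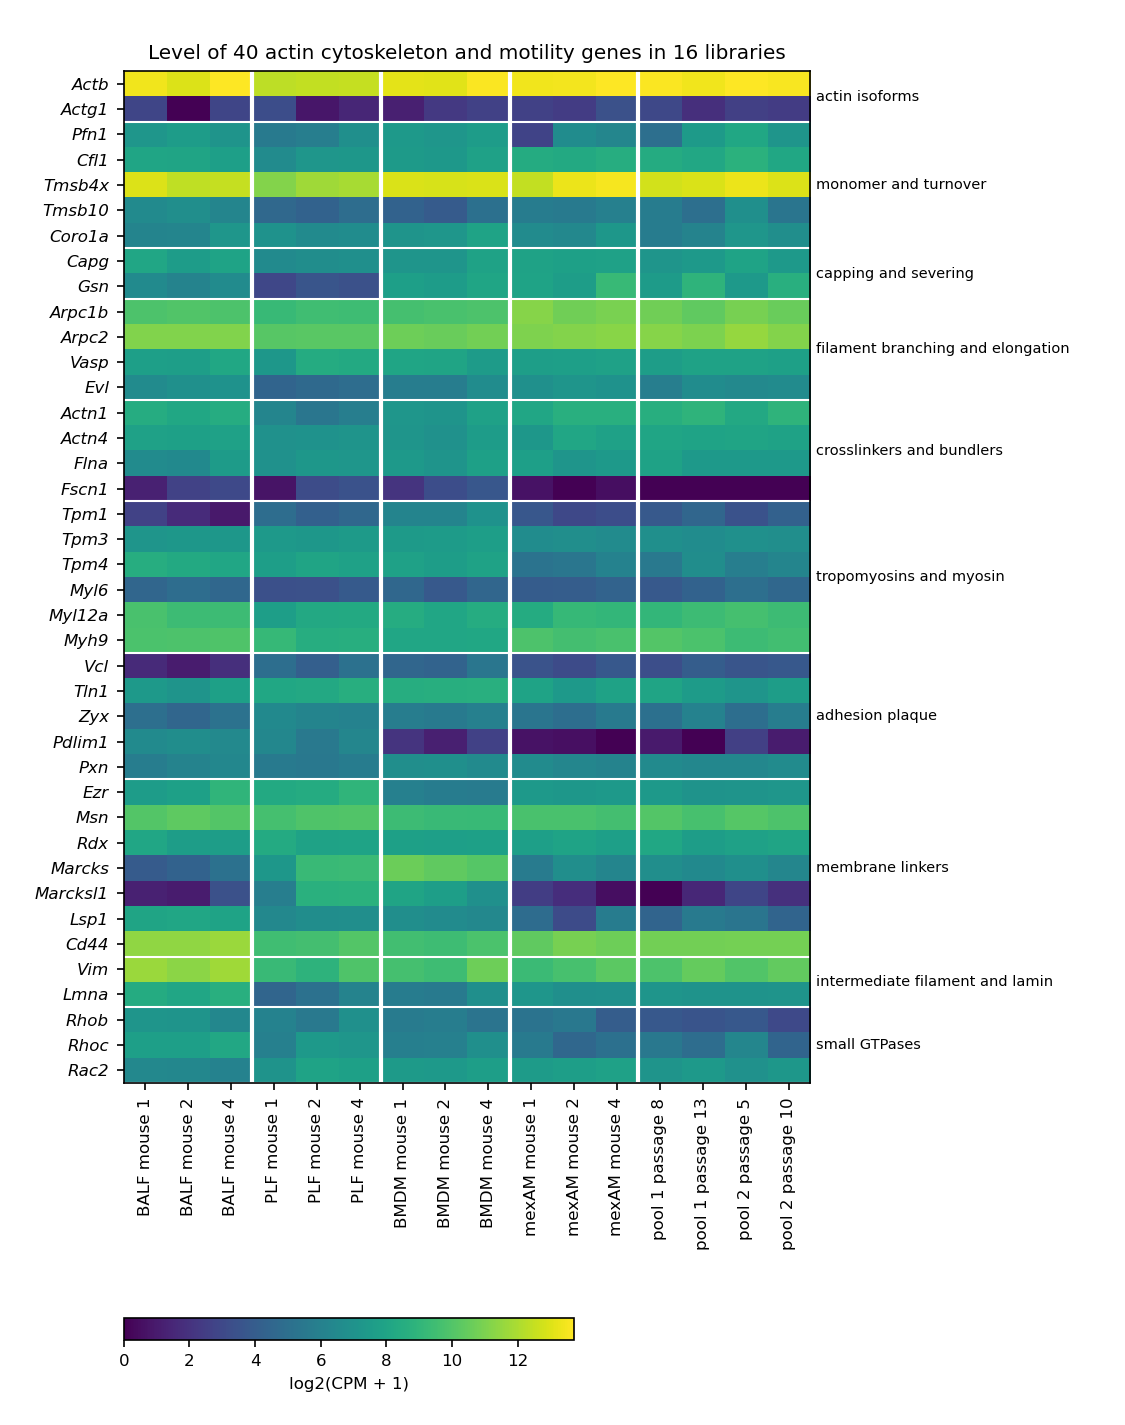
Level of the 40 members in 16 libraries as log2(CPM + 1), in rows ordered by role and columns ordered by group (white lines separate groups and roles). Pdlim1 is dark in BMDM, mexAM and the pools, Fscn1 in mexAM and the pools and Gsn in PLF, and Marcks and Marcksl1 are bright in PLF and BMDM.

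Cultured alveolar macrophages had more Gsn, Vcl, Arpc1b and Rac2 and less Pdlim1, Lsp1, Tpm4, Rhoc, Rhob and Vim than fresh lavage cells. By role, 2 of 5 adhesion plaque genes were called, Vcl higher and Pdlim1 lower, and 4 of 7 membrane linkers, 1 higher and 3 lower. Of all 10011 genes 3007 were called in either direction, so these small counts only describe the roles. In mexAM against BALF, 6 of 39 members tested were higher (Tpm1, Vcl, Gsn, Arpc1b, Rac2 and Marcks), a share of 15.4% beside 15.2% of all 10011 genes. Another 13 were lower (Tmsb10, Tpm3, Tpm4, Myl12a, Pdlim1, Ezr, Vim, Lmna, Lsp1, Fscn1, Rhob, Rhoc and Cd44), a share of 33.3% beside 14.8% of all genes. Pdlim1 among these was listed with its loss already known. The median change of the members was -0.08, beside 0.01 over all genes. Calls on 9 members held in every alternative run, those of Tpm4, Pdlim1, Vim, Lsp1, Gsn, Arpc1b, Rhob, Rhoc and Rac2. Scaling to plain library totals moved the median of all genes to 0.22 and the share of calls that were higher from 50.6% to 67.4%, and left 7 members higher and 9 lower. With BALF of mouse 1 alone, the BALF library with the fewest erythroid transcripts, 3 members were higher and 6 lower, among 1318 genes called in place of 3007. The calls on Tmsb10, Tpm1, Tpm3, Myl12a, Vcl, Ezr, Lmna, Fscn1, Marcks and Cd44 were then lost (adjusted p 0.0763 to 0.665). The erythroid sum given above moved with this comparison, and its part in it was not tested. The neutrophil list summed to 103 to 407 CPM in mexAM against 71.8 to 96.2 in BALF. In mexAM that sum was nearly all S100a8, at 95.2 to 396 CPM against 47.2 to 57.95 in BALF. S100a9 went the other way, at 6.05 to 14.4 CPM in mexAM against 15.9 to 28.4 in BALF. No other gene of the list exceeded S100a9 in mexAM. The part of neutrophils was not tested.

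In fresh cells of the 2 body sites, 26 members were called. In PLF against BALF, 19 of 39 members were lower, 48.7% beside 19.5% of all genes, and they spanned beta-actin, both alpha-actinins, cofilin, both thymosins, the myosin light chains Myl6 and Myl12a and heavy chain Myh9, Arpc1b, Arpc2, Evl, Capg, Gsn, Vim, Lmna, Lsp1, Rhoc and Cd44. The 7 members that were higher, 17.9% beside 20.8% of all genes, were Tpm1, Vcl, Tln1, Zyx, Rac2, Marcks and Marcksl1. The median change was -0.67, beside 0.01 over all genes. On plain library totals 8 members were higher and 17 lower, the median over all genes became 0.27 and the share of calls that were higher went from 51.6% to 66.9%. With BALF of mouse 1 alone the calls on Actn4, Myl6, Lsp1, Arpc1b and Rhoc were lost (adjusted p 0.0671 to 0.328). The B cell, mast cell, T and NK cell, dendritic cell, platelet and lung epithelium sums given above moved with this comparison, and their part in it was not tested.

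Both kinds of cultured macrophage also differed. In mexAM against BMDM, 9 of 39 members were higher, 23.1% beside 21.5% of all genes (Actn1, Cfl1, Tmsb10, Myh9, Ezr, Evl, Arpc1b, Arpc2 and Cd44), and 11 were lower, 28.2% beside 23% (Tpm1, Tpm3, Tpm4, Vcl, Tln1, Pdlim1, Lsp1, Fscn1, Rhoc, Marcks and Marcksl1). These shares lie near those of all genes. The medians were 0.01 for the members and -0.001 for all genes. In BMDM against PLF, 10 members were higher, 25.6% beside 18.4% of all genes (Actb, Actn1, Tmsb4x, Tpm1, Myl6, Pxn, Capg, Gsn, Evl and Marcks), and 4 were lower, 10.3% beside 18% (Myh9, Pdlim1, Ezr and Msn). There the medians were 0.23 and 0.01. PLF and BMDM are cells of different origin, so this second contrast sets cultured beside fresh cells without following 1 population. The 2 comparisons share the BMDM libraries, and the neutrophil marker sum, at 1758 to 4977 CPM in BMDM against 103 to 407 in mexAM and 39.2 to 71.5 in PLF, moved with both. In BMDM against PLF the B cell (88.4 to 126 against 1723 to 2160.0 CPM), mast cell (3.92 to 8.84 against 1313 to 1406), T and NK cell (0.443 to 1.77 against 92.1 to 101), dendritic cell and platelet sums moved as well. In mexAM against BMDM so did the B cell (0.987 to 2.83 against 88.4 to 126 CPM), platelet and lung epithelium sums, that of mesothelium, fibroblast and smooth muscle (0 in mexAM against 29.2 to 91.9) and that of eosinophils (0 to 0.494 against 10.5 to 61.9). The part of these sums in either comparison was not tested.

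**Figure D2:**
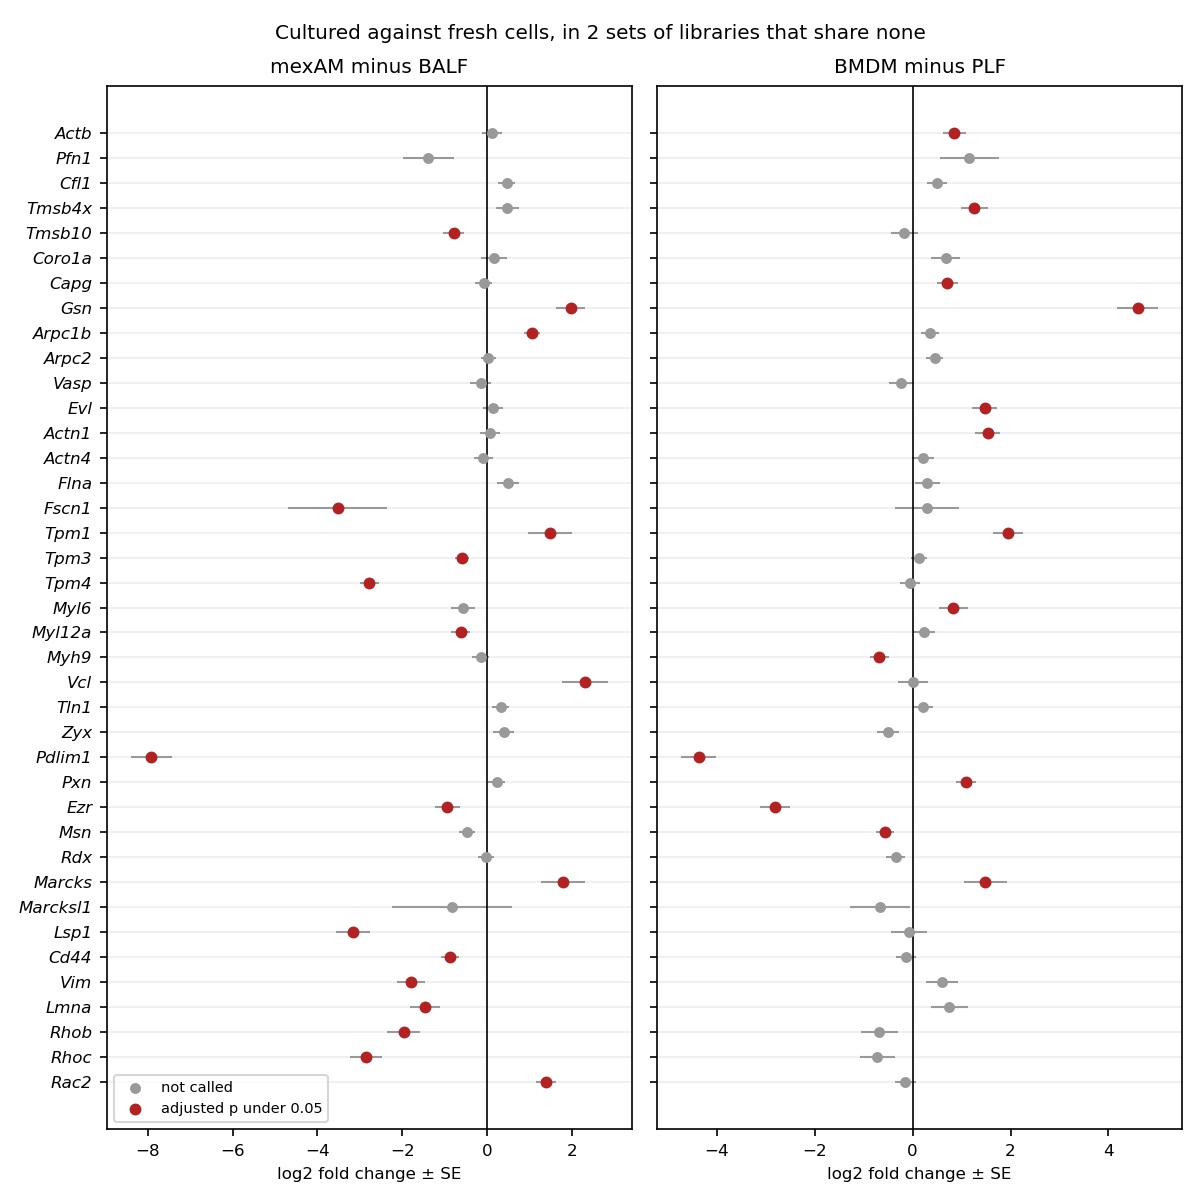
Log2 fold change ± SE of each of the 39 members tested, in mexAM minus BALF (left) and BMDM minus PLF (right), panels with no library in common; red points had an adjusted p under 0.05. Pdlim1 lies far to the left in both panels, Gsn to the right in both, and Tpm4, Lsp1, Vim, Rhob and Rhoc are red on the left panel alone.

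Beta-actin, the main cytoplasmic actin, was at 10948, 7976 and 13135 CPM in BALF, 5099.9, 5488 and 5804 in PLF, 8922, 8689.9 and 12454 in BMDM and 10965, 11307 and 13340.0 in mexAM. All PLF libraries were below all others. The change of Actb was -0.97 ± 0.24 (adjusted p = 0.00316) in PLF against BALF and 0.85 ± 0.24 (adjusted p = 0.00886) in BMDM against PLF, while mexAM and BALF overlapped. Actg1, the other cytoplasmic actin, stood at 0 to 9.69 CPM in all libraries and was too low for the 4-group fit. Of the 65-base windows in the last 500 bases of its transcripts, 47.0% also occur in 12 other genes, so its level depends on how reads with several matches were counted. The same share was 32.8% for Tmsb10, 29.8% for Tpm3, 25.8% for Myl12a, 23.3% for Myl6, 17.5% for Pdlim1, 9.84% for Arpc1b and 4.72% or less for the rest, and changes of these genes carry that limit.

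Most genes of the monomer pool were lower in peritoneal than in fresh lung cells. Tmsb4x, a thymosin that sequesters actin monomers, was at 7959, 5474 and 5869 CPM in BALF, 2302, 3384 and 3906 in PLF, 7775, 7583 and 7929.6 in BMDM and 5506, 10207 and 11694 in mexAM. PLF was below every other group, and mexAM of mouse 1 lay inside the BALF range. It changed by -1.01 ± 0.28 (adjusted p = 0.00704) in PLF against BALF and by 1.26 ± 0.28 (adjusted p = 0.00173) in BMDM against PLF. Its relative Tmsb10 was highest in fresh lung cells, at 94.4, 107 and 75.3 CPM in BALF, against 24.2, 19.1 and 28.5 in PLF, 18.6, 14.4 and 32.4 in BMDM and 52.9, 48.9 and 61.3 in mexAM. No library of these groups overlapped BALF. Tmsb10 changed by -1.94 ± 0.27 (adjusted p = 1.64e-05) in PLF and by -0.79 ± 0.25 (adjusted p = 0.0232) in mexAM against BALF, and was 1.32 ± 0.26 (adjusted p = 0.000539) in mexAM against BMDM. The call of mexAM against BALF was lost without BALF of mouse 1 or 2, or without mexAM of mouse 2 (-0.78 to -0.66, adjusted p 0.0651 to 0.102), and on plain library totals (-0.58, adjusted p = 0.0874). Cofilin (Cfl1), which severs old filaments, changed by -0.90 ± 0.21 (adjusted p = 0.00248) in PLF against BALF and by 0.86 ± 0.21 (adjusted p = 0.00242) in mexAM against BMDM. Profilin (Pfn1), which recharges monomers, was at 145, 192 and 136 CPM in BALF and 5.74, 99.7 and 77.9 in mexAM. The mexAM library of mouse 1 held 10 counts of it, far below the other mexAM libraries, and the change of -1.38 ± 0.60 was not called (adjusted p = 0.106). Without that library the change was called (-0.87, adjusted p = 0.0392), as was one of 0.73 (adjusted p = 0.0381) for Tmsb4x. With mice as a block, Pfn1 was called lower in mexAM than in BMDM (-1.65, adjusted p = 0.0458). Coro1a, a coronin of leukocytes, was called in none of the comparisons but, with mice as a block, was lower in mexAM than in BMDM (-0.65, adjusted p = 0.0342).

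Gelsolin (Gsn), which severs and caps filaments, spanned the widest range among the capping genes. It was at 94.4, 68.9 and 96.6 CPM in BALF, 6.53, 11.1 and 9.49 in PLF, 213, 191 and 262 in BMDM and 245, 193.5 and 609 in mexAM. The 3 PLF libraries were lowest and both kinds of culture were above both kinds of fresh cells, with mexAM of mouse 4 far above the rest. Gsn changed by 1.97 ± 0.34 (adjusted p = 0.000478) in mexAM against BALF (1.33, adjusted p = 0.000492, without mexAM of mouse 4), by -3.27 ± 0.42 (adjusted p = 1.55e-05) in PLF against BALF and by 4.59 ± 0.42 (adjusted p = 6.37e-07) in BMDM against PLF. Capg, which caps filament ends without severing, was at 273, 191 and 248 CPM in BALF, 92.1, 102 and 114 in PLF, 140.4, 139.9 and 233 in BMDM and 239, 222 and 226 in mexAM. PLF was lowest here too, by -1.21 ± 0.22 (adjusted p = 0.000234) against BALF, and BALF and mexAM overlapped. The rise of 0.71 ± 0.22 (adjusted p = 0.0155) in BMDM against PLF was lost without BMDM of mouse 4 (0.43, adjusted p = 0.119).

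Among genes of branching and elongation, Arpc1b was highest in cultured alveolar macrophages. This subunit of the Arp2/3 complex was at 936, 1000.4 and 947 CPM in BALF, 609.8, 727 and 702 in PLF, 819, 887 and 949 in BMDM and 2408, 1727 and 1959 in mexAM. Every mexAM library was above every library of the other 3 groups. Arpc1b rose by 1.05 ± 0.19 (adjusted p = 0.000492) against BALF and 1.20 ± 0.19 (adjusted p = 5.44e-05) against BMDM. In PLF it was -0.51 ± 0.19 (adjusted p = 0.0417) against BALF, a call lost in 6 fits without 1 library (BALF of mouse 1 or 2 or 4, PLF of mouse 1 or 2 or 4; -0.57 to -0.43, adjusted p 0.0537 to 0.123), with DESeq2 size factors, plain library totals or no filter on low counts (-0.50 to -0.25, adjusted p 0.0667 to 0.336) and, with mice as a block, at an adjusted p of 0.0671. The subunit Arpc2 changed by -0.92 ± 0.18 (adjusted p = 0.000444) in PLF against BALF, while mexAM and BALF overlapped. Its difference of 0.51 ± 0.18 (adjusted p = 0.0257) in mexAM against BMDM was lost without BMDM of mouse 1 or 2, or without mexAM of mouse 2 or 4 (0.46 to 0.51, adjusted p 0.0511 to 0.103), and on plain library totals or with no filter on low counts (adjusted p 0.0686 and 0.0732). In BMDM against PLF it was called higher in DESeq2 (0.42, adjusted p = 0.00124) and on plain library totals (0.48, adjusted p = 0.0486). Evl, an Ena/VASP protein that lengthens filaments, was at 95.1, 118 and 126 CPM in BALF, 20.2, 24.6 and 29.1 in PLF, 54.5, 54.2 and 101 in BMDM and 116, 138 and 126 in mexAM. BALF and mexAM overlapped, above PLF. Evl changed by -2.20 ± 0.26 (adjusted p = 3.34e-06) in PLF against BALF, 1.47 ± 0.26 (adjusted p = 0.000253) in BMDM against PLF and 0.87 ± 0.23 (adjusted p = 0.00589) in mexAM against BMDM. Its paralog Vasp was called in no comparison.

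Alpha-actinin 1 (Actn1), a crosslinker and partner of Pdlim1, was at 359, 281 and 356 CPM in BALF, 75.1, 40.5 and 57.5 in PLF, 145, 134 and 231 in BMDM and 280.3, 396 and 399 in mexAM. PLF was lowest, BMDM lay between, and BALF and mexAM overlapped. The change was -2.53 ± 0.26 (adjusted p = 5.60e-07) in PLF against BALF, 1.53 ± 0.25 (adjusted p = 0.000140) in BMDM against PLF and 1.08 ± 0.24 (adjusted p = 0.00141) in mexAM against BMDM. Alpha-actinin 4 (Actn4) changed by -0.82 ± 0.22 (adjusted p = 0.00623) in PLF against BALF. Filamin A (Flna), at 88.6 to 233 CPM over all libraries, was called in no comparison, but rose in mexAM against BALF without BALF of mouse 4 (0.89, adjusted p = 0.0148). Fascin (Fscn1), a bundler of filopodia, did not exceed 12.4 CPM anywhere and held 86 counts over all libraries. It was at 3.10, 8.50 and 12.4 CPM in BMDM, 1.39, 5.47 and 7.09 in BALF and 0.574, 0 and 0.404 in mexAM, and at 0 in all 4 pool libraries. From the counts, its level in BALF was 13.4 times that in mexAM (95% exact interval 3.13 to 121) and that in BMDM 23.3 times (6.06 to 199), counting error only. The call of mexAM against BALF (adjusted p = 0.0326) was lost in 5 fits without 1 library (BALF of mouse 2 or 4, mexAM of mouse 1 or 2 or 4; -3.95 to -3.02, adjusted p 0.0563 to 0.125).

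The tropomyosins, which coat filaments and set access of myosin, differed in their order over the groups. Tpm1, Tpm3 and Tpm4 were lower in mexAM than in BMDM. Against BALF, Tpm4 and Tpm3 were lower in mexAM and Tpm1 was higher. Tpm4 was at 368, 314 and 277 CPM in BALF, 202, 251 and 228 in PLF, 231, 197 and 240.4 in BMDM and 35.6, 40.5 and 66.2 in mexAM. Every mexAM library was below every library of the other 3 groups. Tpm4 fell by 2.77 ± 0.23 on the log2 scale against BALF (adjusted p = 1.59e-07) and was -2.22 ± 0.23 (adjusted p = 3.56e-07) against BMDM, and it was not called between BALF and PLF or between PLF and BMDM. Tpm1 was at 5.55, 2.19 and 0.886 CPM in BALF, 28.7, 17.5 and 22.5 in PLF, 72.6, 71.9 and 126 in BMDM and 12.1, 6.91 and 8.47 in mexAM. It held 11 counts in all of BALF, and BMDM was above all other libraries. Tpm1 changed by 2.85 ± 0.47 (adjusted p = 0.000114) in PLF against BALF (3.90, adjusted p = 0.000156, without BALF of mouse 1), 1.94 ± 0.31 (adjusted p = 8.52e-05) in BMDM against PLF and -3.30 ± 0.33 (adjusted p = 3.18e-07) in mexAM against BMDM. Against BALF its rise in mexAM, 1.49 ± 0.52 (adjusted p = 0.0388), was lost without BALF of mouse 2 or 4, or without mexAM of mouse 1 or 4 (1.08 to 1.56, adjusted p 0.0559 to 0.152) and was 2.53 (adjusted p = 0.0169) without BALF of mouse 1. Tpm3 changed by -0.59 ± 0.17 (adjusted p = 0.0126) in mexAM against BALF and -0.89 ± 0.16 (adjusted p = 0.000263) against BMDM, the first lost without mexAM of mouse 4 (-0.53, adjusted p = 0.0599), on plain library totals (-0.39, adjusted p = 0.0814) and with no filter on low counts (-0.57, adjusted p = 0.0658).

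Genes of myosin II were lower in PLF than in BALF. The regulatory light chain Myl12a was at 862, 672 and 669.7 CPM in BALF, 204, 310.5 and 314 in PLF, 351, 277 and 359 in BMDM and 344, 575 and 544 in mexAM. All BALF libraries were above those of PLF, BMDM and mexAM. It changed by -1.42 ± 0.23 (adjusted p = 9.86e-05) in PLF against BALF. Its change in mexAM, -0.62 ± 0.23 (adjusted p = 0.0483), was lost in 5 fits without 1 library (BALF of mouse 1 or 2 or 4, mexAM of mouse 1 or 4; -0.68 to -0.43, adjusted p 0.0515 to 0.169), on plain library totals (-0.41, adjusted p = 0.201) and with mice as a block (-0.64, adjusted p = 0.0538). The heavy chain Myh9 was at 909.8, 928 and 968 CPM in BALF, 576, 377 and 385 in PLF, 280.3, 278 and 289 in BMDM and 935, 778 and 861 in mexAM. Both lung groups were above PLF and BMDM. Myh9 changed by -1.07 ± 0.19 (adjusted p = 0.000245) in PLF against BALF and 1.61 ± 0.20 (adjusted p = 3.15e-06) in mexAM against BMDM. In BMDM it was -0.68 ± 0.19 (adjusted p = 0.0101) against PLF, a call lost without PLF of mouse 1 (-0.46, adjusted p = 0.0517). The essential light chain Myl6 changed by -1.17 ± 0.30 (adjusted p = 0.00500) in PLF against BALF, and its call in BMDM against PLF was lost without BMDM of mouse 1 or 4, or without PLF of mouse 1 or 2 (0.69 to 0.77, adjusted p 0.0983 to 0.138), in DESeq2 and with no filter on low counts (adjusted p 0.0701 and 0.0548).

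Pdlim1, a PDZ and LIM domain protein that binds alpha-actinin on stress fibres, was nearly absent from both kinds of cultured macrophage. It was at 93.7, 104 and 85.9 CPM in BALF, 80.3, 45.3 and 78.3 in PLF, 3.10, 1.31 and 5.30 in BMDM and 0.574, 0.494 and 0 in mexAM. In the pools it stood at 0.959, 0, 5.04 and 1.04 CPM (pool 1 passages 8 and 13, then pool 2 passages 5 and 10). No fresh library overlapped a cultured one. The 3 BALF libraries held 327 counts and the 3 mexAM libraries 2, which makes BALF 293 times as high with a 95% exact interval of 80.5 to 2430 that covers counting error only. The edgeR adjusted p was 7.81e-09, and the fitted change of -7.92 depends on the prior count. Because this loss was known when the genes were listed, the interval and the adjusted p describe it and are no new test of it. BMDM, with 18 counts, was -4.37 ± 0.36 (adjusted p = 7.18e-08) against PLF. Against mexAM, BMDM was 10.2 times as high (2.45 to 91.0, adjusted p = 0.00343). Fresh PLF and BALF were not called different (adjusted p = 0.159).

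The other adhesion genes showed no such loss. Vinculin (Vcl), the clutch between talin and actin, was at 2.08, 1.09 and 2.66 CPM in BALF, 29.4, 16.7 and 33.2 in PLF, 21.7, 19.6 and 40.7 in BMDM and 10.3, 7.90 and 12.9 in mexAM. BALF, with 7 counts in all, was below every other group, and mexAM lay between BALF and the range of PLF and BMDM. Vcl changed by 2.32 ± 0.54 (adjusted p = 0.00380) in mexAM and 3.68 ± 0.49 (adjusted p = 1.13e-05) in PLF against BALF, and by -1.37 ± 0.33 (adjusted p = 0.00267) in mexAM against BMDM. Zyxin (Zyx), a sensor of tension, was at 31.2, 21.9 and 34.5 CPM in BALF, 89.4, 70.7 and 67.0 in PLF, 54.5, 47.1 and 61.9 in BMDM and 39.1, 29.6 and 49.6 in mexAM. PLF was highest, by 1.35 ± 0.24 (adjusted p = 0.000235) against BALF, and mexAM and BALF overlapped. Talin (Tln1), which activates integrins, changed by 0.91 ± 0.21 (adjusted p = 0.00216) in PLF against BALF and -0.80 ± 0.21 (adjusted p = 0.00400) in mexAM against BMDM. Paxillin (Pxn), an adhesion scaffold, was at 55.5, 68.9 and 79.7 CPM in BALF, 47.0, 43.7 and 53.4 in PLF, 109, 111 and 93.1 in BMDM and 97.7, 76.5 and 69.0 in mexAM. BMDM and PLF did not overlap, and the change between them was 1.09 ± 0.21 (adjusted p = 0.000469).

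Linkers between actin and the membrane held the widest differences between sites. Marcks, which binds actin and membrane lipids, was at 14.6, 18.6 and 33.7 CPM in BALF, 153, 617 and 638 in PLF, 1598, 1306 and 1098 in BMDM and 50.6, 109 and 73.8 in mexAM. Lung cells, fresh or cultured, were below PLF and BMDM, and the PLF library of mouse 1 was low in its group. Marcks changed by 4.40 ± 0.54 (adjusted p = 1.97e-05) in PLF against BALF, -4.09 ± 0.49 (adjusted p = 1.37e-05) in mexAM against BMDM and 1.48 ± 0.44 (adjusted p = 0.0178) in BMDM against PLF, the last lost without BMDM of mouse 1 (1.33, adjusted p = 0.0628). Its rise of 1.79 ± 0.52 (adjusted p = 0.0201) in mexAM against BALF was lost without BALF of mouse 1 or 2, or without mexAM of mouse 2 (1.46 to 1.70, adjusted p 0.0648 to 0.0803). The related Marcksl1 was at 1.39, 1.09 and 9.74 CPM in BALF, 56.8, 419 and 423 in PLF, 253, 205 and 117 in BMDM and 4.60, 2.47 and 0.404 in mexAM. BALF and mexAM held 14 counts each over 3 libraries, and PLF of mouse 1 was again low. Marcksl1 changed by 6.18 ± 0.92 (adjusted p = 0.000171) in PLF against BALF (7.81, adjusted p = 0.000735, without BALF of mouse 4) and by -6.34 ± 0.92 (adjusted p = 0.000113) in mexAM against BMDM (-7.09 and -5.73, adjusted p = 0.00128 and 0.00163, without mexAM of mouse 1 or 4).

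Ezrin (Ezr), which links actin to surface proteins, was at 187, 219.8 and 498 CPM in BALF, 314, 346 and 492 in PLF, 62.4, 53.6 and 50.1 in BMDM and 164, 150.1 and 168 in mexAM. BMDM was lowest, and BALF of mouse 4 was far above the other BALF libraries. Ezr changed by -2.81 ± 0.31 (adjusted p = 3.24e-06) in BMDM against PLF and 1.54 ± 0.30 (adjusted p = 0.000566) in mexAM against BMDM. The difference of -0.93 ± 0.29 (adjusted p = 0.0239) between mexAM and BALF was lost without BALF of mouse 4, or without mexAM of mouse 1 or 2 or 4 (-0.96 to -0.36, adjusted p 0.0558 to 0.230) and on plain library totals (-0.72, adjusted p = 0.0732), and without BALF of mouse 4 PLF was called higher than BALF (0.92, adjusted p = 0.00337). Moesin (Msn) was -0.57 ± 0.18 (adjusted p = 0.0210) in BMDM against PLF, lost without BMDM of mouse 2 or 4, or without PLF of mouse 2 or 4 (-0.54 to -0.52, adjusted p 0.0619 to 0.0730) and with no filter on low counts (-0.54, adjusted p = 0.0564). DESeq2 called it lower in mexAM than in BALF (-0.47, adjusted p = 0.0120) and higher than in BMDM (0.37, adjusted p = 0.0424). Radixin (Rdx), at 198 to 329 CPM over all libraries, was called in no comparison, but was higher in PLF than in BALF on plain library totals (0.52, adjusted p = 0.0291). Lsp1, a leukocyte actin-binding protein, was at 257, 271 and 245 CPM in BALF, 84.2, 105 and 109 in PLF, 107, 96.7 and 83.7 in BMDM and 27.6, 7.90 and 52.1 in mexAM. BALF was above and mexAM below every library of PLF and BMDM. The change was -3.15 ± 0.40 (adjusted p = 4.10e-05) in mexAM against BALF (-3.88, adjusted p = 1.10e-06, without mexAM of mouse 4), -1.38 ± 0.37 (adjusted p = 0.00781) in PLF against BALF and -1.70 ± 0.39 (adjusted p = 0.00247) in mexAM against BMDM (-2.43, adjusted p = 3.34e-05, without mexAM of mouse 4). Cd44, the hyaluronan receptor tied to actin through the ezrin family, was at 2779, 2751 and 3188 CPM in BALF, 721, 782 and 1048 in PLF, 765, 694 and 909.8 in BMDM and 1305, 1902 and 1646 in mexAM. BALF was highest, mexAM next, and PLF and BMDM overlapped. Cd44 changed by -0.87 ± 0.21 (adjusted p = 0.00480) in mexAM and -1.78 ± 0.21 (adjusted p = 3.66e-06) in PLF against BALF, and by 1.04 ± 0.21 (adjusted p = 0.000615) in mexAM against BMDM.

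Vimentin (Vim), the intermediate filament of macrophages, was at 3142, 2591 and 3499.8 CPM in BALF, 625, 459.8 and 961 in PLF, 818, 710.4 and 1619 in BMDM and 643, 856 and 1233 in mexAM. BALF was above every other library, and the other 3 groups overlapped. Vim changed by -1.79 ± 0.33 (adjusted p = 0.000719) in mexAM and -2.18 ± 0.33 (adjusted p = 6.27e-05) in PLF against BALF. Lamin A/C (Lmna), which lines the nucleus and is coupled to actin, was at 348, 274 and 392 CPM in BALF, 20.9, 33.4 and 70.0 in PLF, 53.1, 49.7 and 111 in BMDM and 146, 111 and 119 in mexAM. BALF was highest here too. Lmna changed by -1.46 ± 0.35 (adjusted p = 0.00608) in mexAM and -3.03 ± 0.38 (adjusted p = 1.51e-05) in PLF against BALF (-3.63, adjusted p = 1.65e-06, without PLF of mouse 4). With mice as a block it was called higher in mexAM than in BMDM (0.92, adjusted p = 0.0175).

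The small GTPases split. Rhoc, linked to contractility and migration, was at 212, 212 and 302 CPM in BALF, 62.0, 166 and 148 in PLF, 59.3, 61.4 and 112 in BMDM and 48.3, 22.7 and 31.9 in mexAM. BALF was highest and mexAM lowest of these groups, and no library of either overlapped another group. Rhoc changed by -2.85 ± 0.38 (adjusted p = 6.44e-05) in mexAM against BALF. Its call in PLF against BALF, -0.96 ± 0.35 (adjusted p = 0.0426), was lost in 5 fits without 1 library (BALF of mouse 1 or 2 or 4, PLF of mouse 1 or 4; -1.07 to -0.63, adjusted p 0.0617 to 0.158) and on DESeq2 size factors or plain library totals (adjusted p 0.0542 and 0.149), and that in mexAM against BMDM, -1.18 ± 0.38 (adjusted p = 0.0189), was lost without BMDM of mouse 4, or without mexAM of mouse 2 or 4 (-1.11 to -0.82, adjusted p 0.0653 to 0.0957). Rhob, an endosomal and stress-induced small GTPase, was at 142, 138 and 81.5 CPM in BALF, 65.3, 45.3 and 117 in PLF, 51.4, 55.6 and 37.1 in BMDM and 35.6, 43.9 and 15.3 in mexAM. BALF and PLF overlapped, and mexAM was below both. Rhob changed by -1.96 ± 0.39 (adjusted p = 0.00159) in mexAM against BALF. Rac2, the haematopoietic Rac that drives protrusion, went the other way, at 84.0, 78.7 and 67.3 CPM in BALF, 132, 245 and 222 in PLF, 178, 167 and 205 in BMDM and 179.8, 207 and 230.4 in mexAM. BALF was below every other library. Rac2 changed by 1.40 ± 0.23 (adjusted p = 0.000192) in mexAM and 1.38 ± 0.23 (adjusted p = 0.000108) in PLF against BALF.

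Some members were called only without 1 library or under another setting. With no filter on low counts, Lmna (0.81, adjusted p = 0.00233), Gsn (0.66, adjusted p = 0.0124) and Myl12a (0.57, adjusted p = 0.0363) were called higher and Coro1a (-0.65, adjusted p = 0.0169) lower in mexAM than in BMDM. In BMDM against PLF that fit called Coro1a (0.70, adjusted p = 0.0114), Lmna (0.77, adjusted p = 0.00938), Vim (0.62, adjusted p = 0.0246), Rhoc (-0.69, adjusted p = 0.0156) and Rhob (-0.67, adjusted p = 0.0295), and in PLF against BALF Rhob (-0.66, adjusted p = 0.0266). On plain library totals Cfl1 was called higher in mexAM than in BALF (0.67, adjusted p = 0.0258). Without BMDM of mouse 4, the library with the highest neutrophil sum, mexAM was called higher than BMDM for Lmna (1.28, adjusted p = 0.00775), Actn4 (0.74, adjusted p = 0.0151) and Capg (0.71, adjusted p = 0.00956), and BMDM lower than PLF for Rhoc (-1.07, adjusted p = 0.0425). Without mexAM of mouse 1, mexAM was called different from BMDM for Pfn1 (-0.91, adjusted p = 0.0191), Myl12a (0.75, adjusted p = 0.0105), Pxn (-0.53, adjusted p = 0.0473) and Actn4 (0.71, adjusted p = 0.0114). Without mexAM of mouse 2 this held for Pfn1 (-1.94, adjusted p = 0.0497) and Gsn (0.94, adjusted p = 0.0146), and without mexAM of mouse 4 for Coro1a (-0.92, adjusted p = 0.0278). Without PLF of mouse 1, the library low in Marcks and Marcksl1, BMDM was called lower than PLF for Rhoc (-1.05, adjusted p = 0.0129) and Marcksl1 (-1.16, adjusted p = 0.0339). Without PLF of mouse 4, Rhob in PLF was called lower than in BALF (-1.11, adjusted p = 0.0351), and Lmna was called higher in BMDM than in PLF (1.35, adjusted p = 0.00945). Pxn was called lower in PLF than in BALF without BALF of mouse 1 (-0.64, adjusted p = 0.0477).

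**Figure D3:**
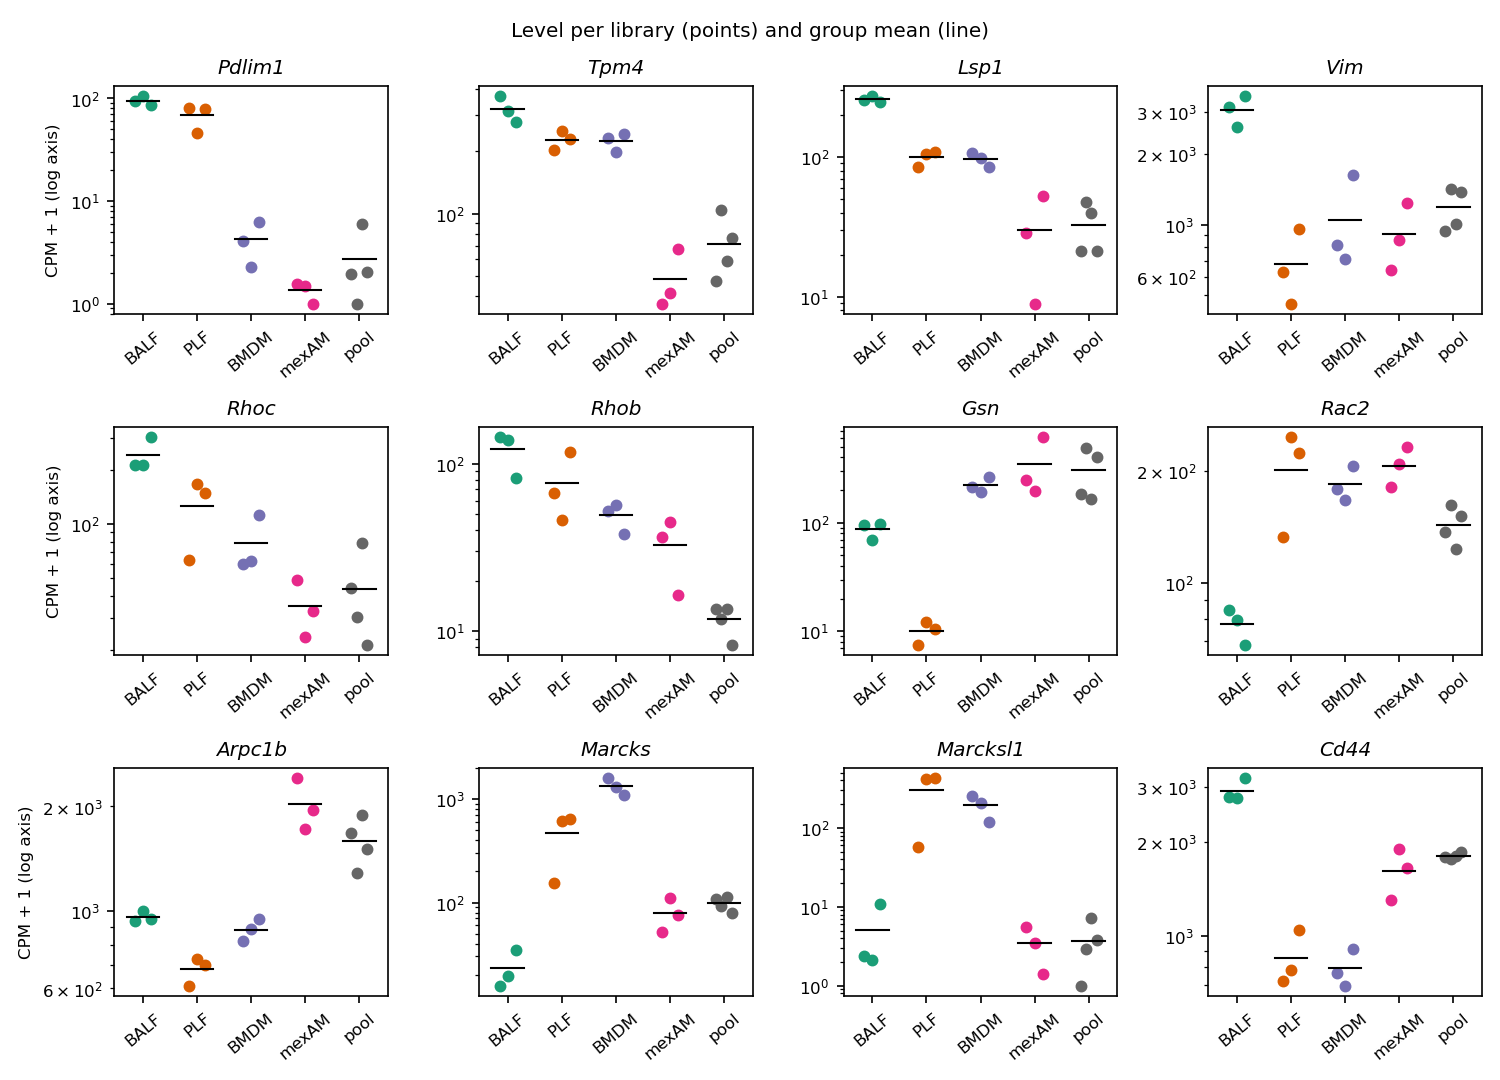
Level per library (points) and group mean (black line) of 12 members, as CPM + 1 on a log axis, for BALF, PLF, BMDM, mexAM and the 4 pool libraries. BALF stands above the other groups for Tpm4, Lsp1, Vim and Cd44 and below them for Rac2, and PLF of mouse 1 is the low point of its group for Marcks and Marcksl1.

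The difference between lung and non-lung cells was compared between culture and fresh cells, as mexAM against BMDM minus BALF against PLF. By construction this also equals the difference between mexAM and BALF minus that between BMDM and PLF. The non-lung cells were PLF when fresh and BMDM in culture, which differ in origin and in cell mix. In this test an effect of culture on lung cells cannot be told apart from that difference. Of 39 members 15 were called in either direction, 38.5% beside 21% of all genes, with 3 positive and 12 negative values. On plain library totals 5 were positive and 10 negative, the median over all genes became 0.17 and the share of calls that were positive went from 44.5% to 55.9%. For Lsp1 and Rhoc the lung difference was called in both settings with opposite signs, and for Tpm4, Pdlim1 and Ezr it was called in culture alone. Both calls on Rhoc were lost when single libraries were left out, 5 of them for PLF against BALF (adjusted p 0.0617 to 0.158) and 3 for mexAM against BMDM (0.0653 to 0.0957), and that on Lsp1 in PLF against BALF with BALF of mouse 1 alone (adjusted p = 0.0966). Tpm4 was 0.50 higher in BALF than in PLF and -2.22 in mexAM against BMDM, an interaction of -2.72 ± 0.31 (adjusted p = 6.73e-06). Lsp1 went from 1.38 to -1.70, an interaction of -3.08 ± 0.54 (adjusted p = 0.000822) (-3.82, adjusted p = 1.13e-05, without mexAM of mouse 4), and Rhoc from 0.96 to -1.18, an interaction of -2.13 ± 0.52 (adjusted p = 0.00786). Ezr went from -0.34 to 1.54, an interaction of 1.88 ± 0.42 (adjusted p = 0.00379). Without BALF of mouse 4 the fresh difference of Ezr was called as well, with PLF higher than BALF (0.92, adjusted p = 0.00337). For Pdlim1 the value of -3.55 ± 0.81 (adjusted p = 0.00420) rests on 2 counts in mexAM and depends on the prior count, and was -2.92 without mexAM of mouse 4.

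For Gsn, Lmna, Vim and Rac2 the lung difference was called in fresh cells alone, and for Actn1, Evl and Vcl it was called in both and was smaller in culture. Gsn was 3.27 higher in BALF than in PLF and 0.65 in mexAM against BMDM, an interaction of -2.62 ± 0.53 (adjusted p = 0.00227) (-3.27 without mexAM of mouse 4). Lmna went from 3.03 to 0.82, an interaction of -2.21 ± 0.51 (adjusted p = 0.00619) (-2.82 without PLF of mouse 4), and Vim from 2.18 to -0.20, an interaction of -2.39 ± 0.46 (adjusted p = 0.00131). Actn1 and Evl gave interactions of -1.45 ± 0.35 (adjusted p = 0.00584) and -1.33 ± 0.35 (adjusted p = 0.0110). Vcl, lower in lung cells in both settings, went from -3.68 to -1.37, an interaction of 2.31 ± 0.63 (adjusted p = 0.0144), and Rac2 from -1.38 to 0.17, an interaction of 1.55 ± 0.31 (adjusted p = 0.00165). The calls on Tpm3 (0.0325), Myl6 (0.0198) and Pxn (0.0441, all adjusted p) were lost when single libraries were left out, those on Tpm3 and Pxn also on plain library totals (0.0948 and 0.102) and with no filter on low counts (0.132 and 0.0776), and that on Pxn with DESeq2 size factors (0.0522). Tpm3 was lost in 8 fits without 1 library (BALF of mouse 1 or 2 or 4, BMDM of mouse 2 or 4, mexAM of mouse 4, PLF of mouse 2 or 4; -0.77 to -0.67, adjusted p 0.0513 to 0.0862), Myl6 without BALF of mouse 2, or without BMDM of mouse 1 (-1.27 to -1.26, adjusted p 0.0534 to 0.0629) and Pxn in 9 fits without 1 library (BALF of mouse 2 or 4, BMDM of mouse 1 or 2, mexAM of mouse 2 or 4, PLF of mouse 1 or 2 or 4; -0.93 to -0.72, adjusted p 0.0572 to 0.113). With mice as a block, Tpm3 (adjusted p = 0.0591) and Pxn (0.0669) were also lost, while Pfn1 (-2.85, adjusted p = 0.0370) and Fscn1 (-4.10, adjusted p = 0.00737) were gained. Marcks and Marcksl1 were not called, with interactions of 0.31 ± 0.67 (adjusted p = 0.801) and -0.16 ± 1.39 (adjusted p = 0.967).

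**Figure D4:**
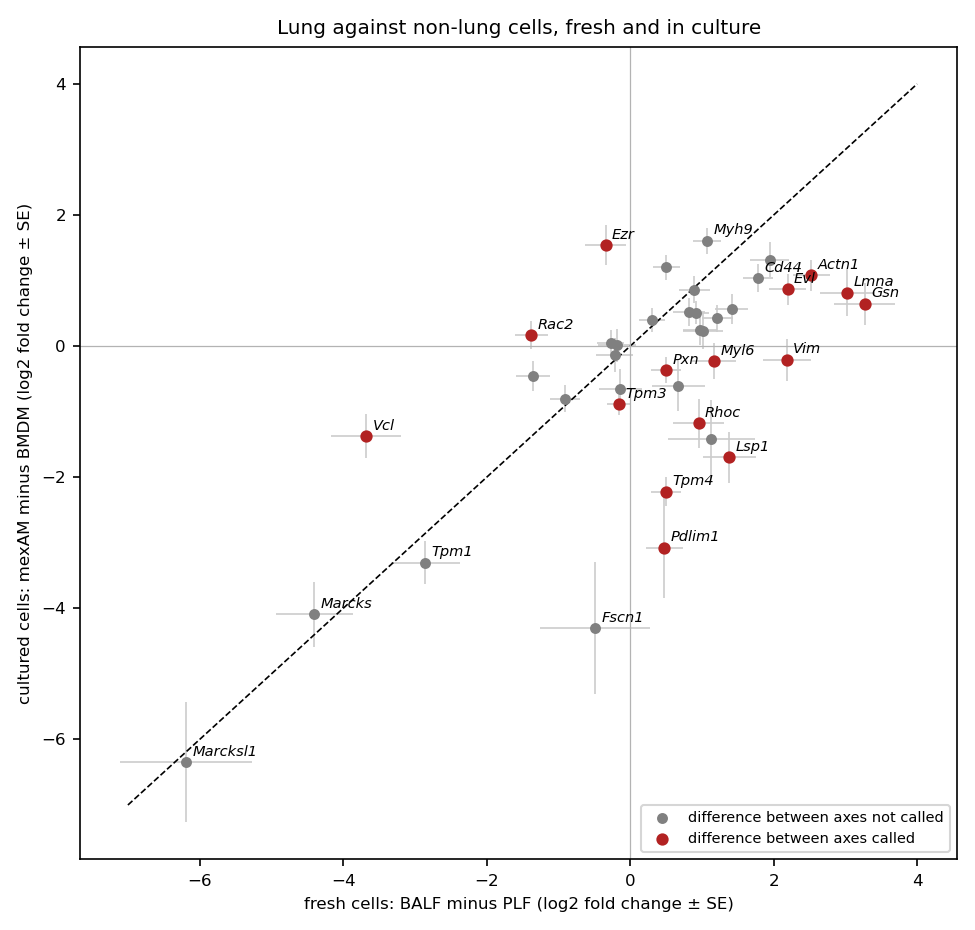
Log2 fold change ± SE between lung and non-lung cells for the 39 members tested, in fresh cells (BALF minus PLF, horizontal) and cultured cells (mexAM minus BMDM, vertical); the dashed line marks equal differences, and red points had an adjusted p under 0.05 for the difference between the axes. Tpm4, Lsp1, Rhoc and Pdlim1 lie in the lower right corner, and Marcks, Marcksl1 and Tpm1 lie near the dashed line.

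The pool cultures held less Pdlim1, Lsp1, Rhob, Rhoc and Tpm4 and more Gsn and Vcl than fresh lavage cells. The labels do not say whether the pools include the numbered mice. Against BALF, 7 of 40 members were higher (Tpm1, Vcl, Zyx, Gsn, Arpc1b, Rac2 and Marcks), 17.5% beside 13.6% of 10602 genes, and 11 were lower (Tmsb10, Tpm4, Pdlim1, Ezr, Vim, Lmna, Lsp1, Fscn1, Rhob, Rhoc and Cd44), 27.5% beside 12.4%. This comparison shares the BALF libraries with that of mexAM, so the 2 lists are not independent. Values per library, in the order pool 1 passages 8 and 13 and pool 2 passages 5 and 10, were 46.0, 103, 57.9 and 75.1 CPM for Tpm4, a change of -2.09 ± 0.25 (adjusted p = 5.19e-06) against BALF. For Lsp1 they were 20.1, 46.6, 39.0 and 20.4 CPM, a change of -3.11 ± 0.46 (adjusted p = 0.000166). Rhob, at 12.5, 10.8, 12.6 and 7.26 CPM, was below every other library and changed by -3.62 ± 0.49 (adjusted p = 5.78e-05). Rhoc was at 43.1, 29.3, 78.1 and 20.4 CPM, a change of -2.85 ± 0.42 (adjusted p = 0.000149), and Gsn at 182, 481, 164 and 402 CPM, a change of 2.03 ± 0.35 (adjusted p = 0.000450). Gsn stood higher at the later passage in both pools, but that difference of 1.34 ± 0.38 was not called (adjusted p = 0.328). The change of Pdlim1 was -6.17 ± 0.46 (adjusted p = 3.60e-08), on 8 counts, and -7.68 without pool 2. Fscn1, at 0 in the pools, was at least 9.03-fold lower than in BALF, with its sum over the pools set to the floor of 3 counts.

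Of the 18 calls of the pool comparison, 7 held in every alternative. Without pool 1, 9 members were called, and without pool 2, 11. Calls on Tpm4, Vcl, Pdlim1, Lsp1, Gsn, Rhob and Rhoc held in every alternative. Among the others, Vim was lost without pool 1 or 2 (-1.31 to -1.28, adjusted p 0.0868 to 0.0903), Lmna without pool 1 or 2 (-1.36 to -1.30, adjusted p 0.101 to 0.122), Cd44 without BALF of mouse 4, or without pool 1 or 2 (-0.69 to -0.64, adjusted p 0.0594 to 0.156) and Rac2 without pool 1 (0.88, adjusted p = 0.0529). Ezr was lost without BALF of mouse 4, or without pool 1 or 2 (-1.07 to -0.50, adjusted p 0.105 to 0.137), Zyx without BALF of mouse 1 or 2, or without pool 1 or 2 (0.63 to 0.86, adjusted p 0.0667 to 0.124), Arpc1b without BALF of mouse 1 or 4, or without pool 1 or 2 (0.60 to 0.70, adjusted p 0.0524 to 0.130), Marcks without BALF of mouse 1, or without pool 1 (1.75 to 1.92, adjusted p 0.0582 to 0.0709), Tmsb10 without BALF of mouse 2, or without pool 1 (-0.85 to -0.75, adjusted p 0.0504 to 0.164) and Fscn1 without pool 2 (-5.96, adjusted p = 0.0828). On plain library totals Ezr and Cd44 were lost (adjusted p 0.0581 and 0.114), and with no filter on low counts Marcks (0.0541). With BALF of mouse 1 alone 11 calls were lost, those on Tmsb10, Tpm1, Zyx, Ezr, Vim, Lmna, Arpc1b, Fscn1, Rac2, Marcks and Cd44 (adjusted p 0.0668 to 0.453). Tpm1, at 2.45 ± 0.49 (adjusted p = 0.00101), was 3.47 (adjusted p = 0.00115) without BALF of mouse 1. On plain library totals 8 members were higher and 9 lower, the median over all genes became 0.20 and the share of calls that were higher went from 52.5% to 67.7%.

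No member was called between pool cultures and mexAM in the main edgeR fit, beside 0.698% of all genes called in either direction. Of all genes, 74 were called and 1494 had an unadjusted p under 0.05. With mice and pools as a block 135 genes and no member were called. DESeq2 called 179 genes and 1 member, Rhob, lower in the pools (-1.68, adjusted p = 0.0269). Rhob was also called in edgeR without the filter on low counts (-1.64, adjusted p = 3.67e-05) and without mexAM of mouse 4 (-2.02, adjusted p = 0.0387). In the main edgeR fit its value was -1.65 ± 0.48 (adjusted p = 0.114). Between the later and the earlier passage no member was called in the main fit, beside 0.0095% of 10527 genes. There edgeR called 1 gene, Rgs2, with 947 at an unadjusted p under 0.05, and with the pool as a block 0 genes were called, 863 at an unadjusted p under 0.05. DESeq2 called 22 genes and no member. Without the filter on low counts, Gsn (1.35, adjusted p = 0.00101) was higher and Rhoc (-1.29, adjusted p = 0.0205) and Tmsb10 (-1.20, adjusted p = 0.0300) were lower at the later passage. The pool tests take most of their estimate of spread from the groups of single mice.

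Of 133 further genes of the pathway in 8 lists, 115 were tested among the 4 groups. In mexAM against BALF 18 were higher and 23 lower, with a median of -0.06. The largest such changes upward were in Abi3, a partner of the WAVE complex, at 168, 99.2 and 142 CPM in mexAM and 7.63, 0 and 23.0 in BALF, a change of 3.66 ± 0.60 (adjusted p = 0.000543). The motors Myo1f and Myo7a followed, with 1.59 ± 0.21 (adjusted p = 3.13e-05) and 1.59 ± 0.29 (adjusted p = 0.000596). Lower were the atypical GTPase Rnd3, by -2.23 ± 0.37 (adjusted p = 0.000250), the cytolinker plectin (Plec), by -1.86 ± 0.21 (adjusted p = 5.80e-06), and the Rac regulator Arhgap25, by -1.63 ± 0.27 (adjusted p = 0.000199). Of the 7 other Arp2/3 subunits 1 was lower and none higher. The 18 and 23 of 115 stand beside 15.2% and 14.8% of all genes.

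In PLF against BALF 33 of the 115 were higher and 33 lower, beside 20.8% and 19.5% of all genes, with a median of -0.30 beside 0.01. Ablim1, an actin-binding LIM protein, was at 228, 189 and 238 CPM in PLF and 0, 0 and 2.66 in BALF, with 3 counts in all of BALF, which makes PLF 256 times as high (95% exact interval 87.5 to 1245, counting error only). The formin Fmnl2 changed by 5.46 ± 0.58 (adjusted p = 2.94e-06). Ablim1 was thus near 0 in fresh lung cells and present in all peritoneal libraries. The B cell, T and NK cell, mast cell and dendritic cell sums given above were higher in PLF too, and their part in these changes was not tested. The formin Daam1 changed by -2.89 ± 0.22 (adjusted p = 1.50e-08), Fblim1 by -2.54 ± 0.33 (adjusted p = 1.02e-05) and Mrtfb, a coactivator of serum response factor, by -2.24 ± 0.25 (adjusted p = 1.45e-06).

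In mexAM against BMDM 26 of the 115 were higher and 39 lower, beside 21.5% and 23% of all genes, with a median of -0.24 beside -0.001. The adaptor Fyb stood at 4.02, 2.47 and 1.21 CPM in mexAM and 815, 1001 and 956 in BMDM, a change of -8.52 ± 0.36 (adjusted p = 1.52e-11). Arhgap15 and Pdlim4, a relative of Pdlim1, changed by -5.75 ± 0.33 (adjusted p = 3.96e-10) and -5.49 ± 0.33 (adjusted p = 5.75e-10). Higher were Myo7a, by 3.10 ± 0.31 (adjusted p = 3.44e-07), parvin gamma (Parvg), by 2.55 ± 0.36 (adjusted p = 3.07e-05), and the Src family kinase Fgr, by 2.38 ± 0.54 (adjusted p = 0.00305). In BMDM against PLF 34 were higher and 20 lower, beside 18.4% and 18% of all genes (median 0.24 beside 0.01), led by Myo1f, Fblim1 and Fyb upward and by Ablim1 and Rhoh downward. The part of the other cells in PLF was not tested here either. The interaction was called for 12 with a positive and 28 with a negative value, beside 21% of all genes in either direction. In the pools against BALF 11 of 117 were higher and 14 lower, beside 13.6% and 12.4% of all genes, shares no larger than those of all genes. None was called in pools against mexAM or in later against earlier passage.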

How the data were processed

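QuantSeq 3′ libraries, prepared with a UMI module per the labels' protocols, were deposited by the authors as raw read counts per Ensembl gene. Build GRCm38/mm10 is named per the submitters' processing notes, while aligner, counter, strand use, UMI collapsing and treatment of multiply matching reads were not given in the sources used here. Each file has 5 summary lines, left out of totals: 10.6% to 29.9% of the reads lay in no feature and 0.451% to 0.625% were ambiguous. GENCODE M21 named 47224 of 47643 identifiers. Intervals cover counting error only.

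Counts were fitted in edgeR 4.0.16 (R 4.3.3, limma 3.58.1), tested on simulated data first, with TMM scaling, filterByExpr, robust quasi-likelihood F tests and Benjamini-Hochberg adjustment over all genes tested. The 12 libraries of 4 groups gave 10011 genes, the same with each pool's passages summed 10602, and all 16 libraries 10527. Alternatives were DESeq2 1.42.0, 2 other scalings, no filter, removal of ribosomal RNA locus, mitochondrial and haemoglobin genes, BALF of mouse 1 alone, each library left out and a replicate block.

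The members, lists and tests were chosen with earlier results of these data known. Values per library are given for members called with at least a 2-fold change and 50 CPM in the higher group in any of the first 4 comparisons, and Actb, Vcl, Pfn1, Fscn1 and other members outside this rule were chosen after their values were seen. Of the other pathway genes, up to 3 per direction with the largest such changes and groups that do not overlap are named, except 1 gene that is not reported here. Equal mouse numbers in the labels were taken to mark the same animal. Deviations of the 18 pairs from their group means were barely correlated (r from -0.11 to 0.20, 2 above 0.1).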

Additional observations from a re-analysis of the deposited data

Results flagged for a closer look

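For 15 members the difference between lung and non-lung cells was not the same in culture (mexAM minus BMDM) as in fresh cells (BALF minus PLF), by the interaction test of the edgeR fit at an adjusted p under 0.05, 38.5% of the members tested beside 21% of all genes. On the log2 scale the culture difference was lower than the fresh one for 12 of them. The values were -3.55 for Pdlim1, -3.08 for Lsp1, -2.72 for Tpm4, -2.62 for Gsn, -2.39 for Vim, -2.21 for Lmna, -2.13 for Rhoc, -1.45 for Actn1, -1.40 for Myl6, -1.33 for Evl, -0.86 for Pxn and -0.73 for Tpm3. It was higher for Vcl, by 2.31, Ezr, by 1.88, and Rac2, by 1.55. The calls on Tpm3, Myl6 and Pxn were lost when single libraries were left out. The value of Pdlim1 depends on 2 counts in mexAM. The non-lung cells were BMDM in culture and PLF when fresh, so culture cannot be told apart from their difference in origin and cell mix.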

How the results depend on the processing

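No called member value turned sign under any alternative. Calls that held in all of them numbered 9 of 19 in mexAM against BALF, 21 of 26 in PLF against BALF, 18 of 20 in mexAM against BMDM, 9 of 14 in BMDM against PLF, 12 of 15 in the interaction and 7 of 18 in the pools against BALF. With BALF of mouse 1 alone, 9 members and 1318 genes were called in mexAM and 7 and 1403 in the pools against BALF, from fewer samples. Leaving out 1 library or pool gave 9 to 16 members and 1604 to 2427 genes in the pools against BALF, 0 or 1 member and 6 to 99 genes in the pools against mexAM, and 0 to 4 genes between passages; fewer samples entered each. The pools against mexAM had 179 genes and 1 member in DESeq2, 380 genes and 1 member without the filter on low counts, and 135 genes with the replicate block. Between passages DESeq2 called 22 genes, the fit without the filter 80 genes and 3 members, and the replicate block 0 genes. The cause was not tested for these settings. With mice paired by the replicate block, mexAM against BALF kept 18 called members, and beyond the members named with it in the report no other call on a member changed. Leaving ribosomal RNA locus, mitochondrial and haemoglobin genes out of the totals, which makes every share larger, gave member sums of 41820, 21833, 35087, 42049 and 42193 CPM in BALF, PLF, BMDM, mexAM and the pools. Depth limits Fscn1, Vcl and Tpm1 in BALF, and Pdlim1 in culture, which rest on few counts. Few counts were also held by Actg1, whose level depends on how reads with several matches were counted.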
